A study of Caenorhabditis elegans with 2 samples.

Results

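Peaks of the T-box transcription factor MAB-9 were examined at 10 regulators of the hindgut and male tail of Caenorhabditis elegans: tlp-1, egl-27, egl-38, egl-5, lin-48, sem-4, ceh-6, sox-2, mab-23 and dmd-3. These 10 genes, of 19973 protein-coding genes in all, were taken as a fixed list of names, and each was given a window from 5000 bp upstream of its first annotated start to its end. The binding profile came from chromatin immunoprecipitation and sequencing (ChIP-seq) of whole L1 larvae of strain RW12257, labelled as 6 hours old and as starved after bleaching. In this strain the endogenous mab-9 gene on chromosome II carries an inserted TY1, EGFP and 3xFLAG tag (allele st12257), and the labels' description gives an anti-GFP antibody for the immunoprecipitation, while their antibody field reads mab-9. The description was followed here. There was 1 group of 2 biological replicates from separate biosamples, both of the same tagged strain, so no genotype or treatment was compared. Sex was not recorded in the labels, and larvae without the tag and the control library were not analysed here.

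Each peak has a signal, the value that the authors' peak caller wrote for it on a scale that the sources used here do not state, and an irreproducible discovery rate, which measures how well its rank repeats between lists. The conservative list, which pools both replicates and keeps peaks with a rate of at most 0.01, held 1431 peaks and was the main set. The ranked lists keep weaker peaks too, 116030 in replicate 1 and 90836 in replicate 2, so a window without a conservative peak still held ranked ones. No read counts were among the files, so depth is unknown. In whole larvae, occupancy in fewer cells and weaker occupancy per cell cannot be told apart.

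MAB-9 is known for specifying the fates of posterior hindgut cells, whose descendants in males build copulatory structures of the tail. The genes examined here act in the same tissues. EGL-38, a Pax family protein, EGL-5, a Hox protein of the Abdominal-B type, and LIN-48, an Ovo-related zinc finger protein, act in hindgut cells. SEM-4 (Spalt family), EGL-27 (related to the MTA family of chromatin proteins), CEH-6 (a POU homeodomain protein) and SOX-2 are needed for the rectal cell Y to become the motor neuron PDA. TLP-1, a zinc finger protein, and EGL-27 are needed for the polarity of the tail hypodermal cell T. DMD-3 and MAB-23 belong to the DM domain family of sexual regulators and act in the male tail.

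Conservative peaks were found at tlp-1, which had 2, and at egl-27, which had 1. The sequences under these 3 summits, and under the strongest egl-27 peak outside the conservative list, are shown because they carry the results that follow. Each runs 5′ to 3′ on the strand of the gene, from 100 bp before to 100 bp after the summit, read from the RefSeq genome of the ce11 build. Capitals mark matches to AGGTGTGA, the sequence bound by T-box proteins, and to the GAGA repeat GAGAGA, on either strand. The windows are chrIV:13704063-13704263 (minus strand), chrIV:13702771-13702971 (minus strand), chrII:6838378-6838578 (plus strand) and chrII:6834538-6834738 (plus strand).
tlp-1 promoter: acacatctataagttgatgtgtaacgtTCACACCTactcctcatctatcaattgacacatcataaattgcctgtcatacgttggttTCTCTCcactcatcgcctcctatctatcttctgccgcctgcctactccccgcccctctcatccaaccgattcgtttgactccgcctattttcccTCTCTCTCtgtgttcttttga
tlp-1 exon: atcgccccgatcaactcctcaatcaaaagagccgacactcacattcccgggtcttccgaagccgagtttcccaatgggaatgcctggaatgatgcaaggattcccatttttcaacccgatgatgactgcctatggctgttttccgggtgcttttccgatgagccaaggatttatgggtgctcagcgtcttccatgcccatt
egl-27 intron: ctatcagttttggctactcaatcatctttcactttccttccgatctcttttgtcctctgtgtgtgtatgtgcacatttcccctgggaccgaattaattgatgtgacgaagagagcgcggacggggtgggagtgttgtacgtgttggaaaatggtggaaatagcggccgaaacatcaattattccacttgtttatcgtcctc
egl-27 upstream: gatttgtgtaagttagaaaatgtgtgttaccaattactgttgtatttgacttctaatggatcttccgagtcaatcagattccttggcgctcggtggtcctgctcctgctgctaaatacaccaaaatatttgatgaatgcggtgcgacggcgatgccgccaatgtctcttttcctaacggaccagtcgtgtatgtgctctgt
The tlp-1 promoter sequence holds AGGTGTGA on the strand opposite to the gene, where it reads TCACACCT on the strand shown, with its centre 70 bp from the summit. It also holds 3 GAGAGA matches, 2 of them overlapping, all on the opposite strand, the closest 12 bp from the summit. The other 3 sequences hold neither pattern.

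Of the 10 genes, 2 had a conservative peak in the window. Across all protein-coding genes 2271 of 19973 (11.4%) had one under the same rule. Windows of the 10 genes were longer than most, with a median of 9.21 kb against 7.03 kb, and among the 8908 genes whose windows were 7.13 to 17.9 kb long, the range of the 10, the share was 13.6%. With 10 genes, 1 gene more or less moves the count to 3 or 1, and the count is read as near this background. The other pooled list gave the same 2 genes, against 11.7% of all genes, and so did the list of replicate 1 alone, against 7.34%. The list of replicate 2 alone gave tlp-1 only, against 7.80%. Because the genes were listed with results of these data known, no test was applied to these counts.

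The tlp-1 gene (WBGene00006580, chromosome IV, 13701208 to 13704082, minus strand) carried the strongest peak of the 10 genes. This peak, from 13704003 to 13704322, had its summit 81 bp upstream of the single annotated start, outside any annotated gene. Its signal was 153, rank 343 of the 1431 conservative peaks, and it was 71.8 in replicate 1 and 74.1 in replicate 2 (73.0 ± 1.64, SD, n = 2). The replicates placed their summits 77 and 76 bp upstream, and both replicates' thresholded lists held the peak. Its discovery rate was 0.000404 in the pooled ranked list that holds all conservative peaks, and 0.00182 and 0.000225 within replicates 1 and 2.

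A second tlp-1 peak, from 13702711 to 13703030, lay inside the gene, with its summit in coding exon 2 of 4 and 1211 bp downstream of the start. Its pooled signal was 99.1, rank 708, with 53.0 in replicate 1 and 49.2 in replicate 2 (51.1 ± 2.66, SD, n = 2). The replicates were less exact about its place than at the promoter, with summits 26 and 62 bp from the pooled one. Replicate 1's thresholded list held it at a rate of 0.00549. Replicate 2's did not, at a rate of 0.0319, above the threshold of 0.01. A gene with at least 2 conservative peaks in its window was uncommon, at 1.58% of all protein-coding genes. The remaining 8 ranked peaks of the tlp-1 window reached at most 39.2. No other protein-coding gene overlapped the window, but 32 annotated piRNA genes did, the nearest of them 489 bp from the promoter summit and 415 bp from the exon summit.

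The egl-27 gene (WBGene00001194, chromosome II, 6835008 to 6847908, plus strand) is the longest of the 10, with 24 annotated transcripts from 14 distinct starts. Its conservative peak, from 6838318 to 6838637, lay 3470 bp downstream of the first start, in intron 5 of transcript C04A2.3b.1. An internal start, that of transcript C04A2.3m.1, lay 548 bp upstream of the summit and was the nearest protein-coding start. The pooled signal was 101, rank 682, with 52.7 in replicate 1 and 49.0 in replicate 2 (50.9 ± 2.60, SD, n = 2). Summits in the replicates fell within 12 bp of the pooled one. Replicate 1's thresholded list held the peak, at a rate of 0.00524, and replicate 2's did not, at a rate of 0.0206. The egl-27 intron peak and the tlp-1 exon peak thus had near-equal signals in each replicate and the same pattern of calls.

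Upstream of the first egl-27 start was a weaker peak outside the conservative list. From 6834478 to 6834797, it had its summit 370 bp upstream, a pooled signal of 61.1 and a rate of 0.0159, against the threshold of 0.01, but a rate of 0.0725 in the other pooled ranked list. In replicate 1 it had 31.2, with a summit 140 bp from the pooled one, and in replicate 2 it had 36.9, with a summit 9 bp away. Its rates within replicates 1 and 2 were 0.339 and 0.0859. Another, 4131 bp downstream of the first start in an intron, had a signal of 60.3, with 35.1 and 22.99 in the replicates. Its rates were 0.0418 and 0.119 in the same pooled ranked lists. Signals of this size were seldom kept anywhere in the genome: of the 975 ranked peaks within 5% of 61.1, 37 (3.79%) were in the conservative list, against 110 of 114 (96.5%) near the signal of the intron peak. At a rate of at most 0.05, the same 2 genes had a peak, against 18.8% of all genes, and the number of peaks in the 10 windows was 5.

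**Figure D1:**
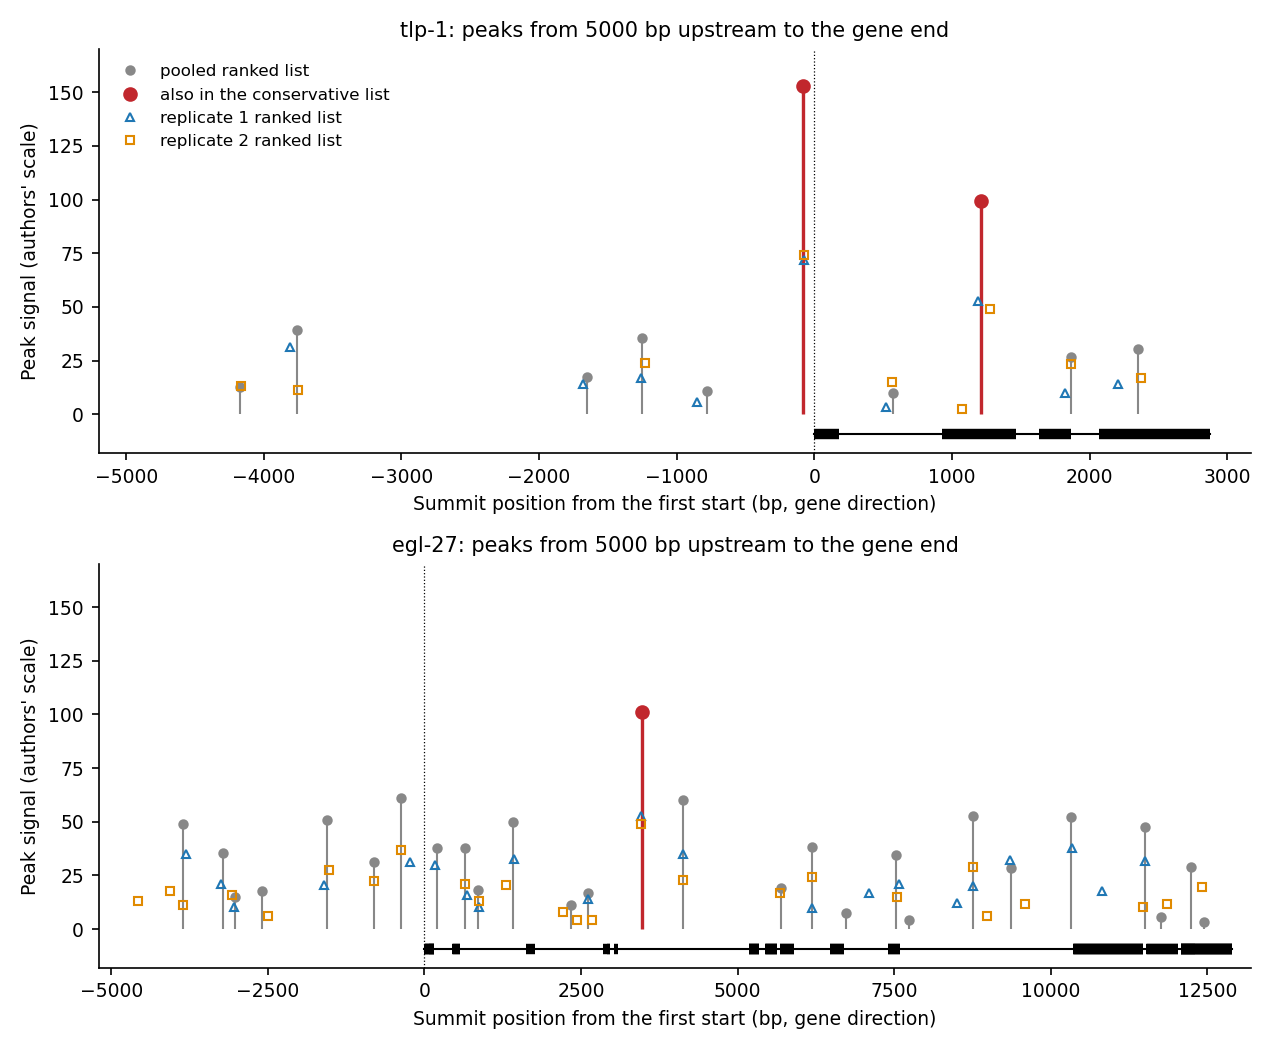
Peak signal (vertical axis, authors' scale) against summit position from the first start (horizontal axis, bp, positive in the direction of the gene) for tlp-1 and egl-27. Grey stems are peaks of the pooled ranked list, red stems those also in the conservative list, triangles and squares the ranked peaks of replicates 1 and 2, and black boxes all annotated exons on a line for the gene. The red stems stand at 153 and 99.1 for tlp-1 and at 101 for egl-27, and all other stems are at 61.1 or lower.

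The conservative peaks at both genes had closely matched replicates. The log2 ratio of replicate 1 to replicate 2 was -0.05 at the tlp-1 promoter, 0.11 at the tlp-1 exon and 0.10 at the egl-27 intron. Over the 1346 conservative peaks matched in both ranked lists, the median ratio was 0.21 with an SD of 0.43. Peaks of the conservative list were kept because their ranks repeat, so close values were partly selected for. Of all conservative peaks, 39.1% were in both replicates' thresholded lists, as the tlp-1 promoter peak was, and 12.9% were in that of replicate 1 only, as the other 2 were.

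**Figure D2:**
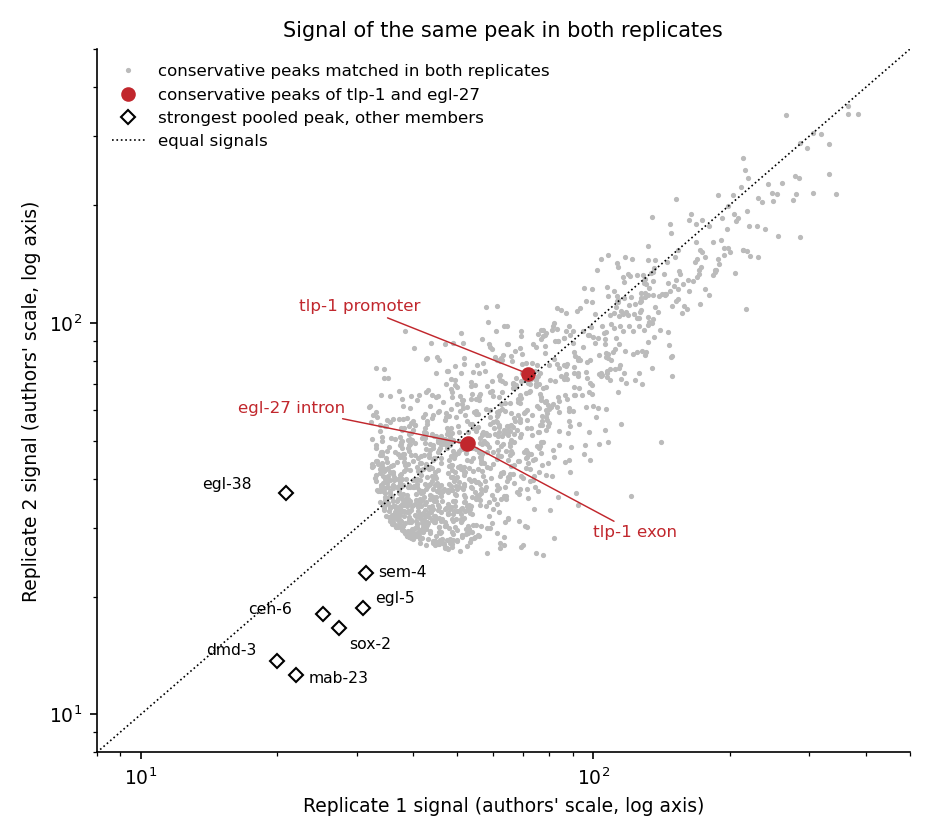
Signal of the same peak in replicate 1 (horizontal) and replicate 2 (vertical), both on log axes in the authors' scale. Grey points are the 1346 conservative peaks matched in both replicates, red points the conservative peaks of tlp-1 and egl-27, open diamonds the strongest pooled peak of the other genes with a match in both replicates (lin-48 had none in replicate 2), and the dotted line marks equal signals. The tlp-1 exon and egl-27 intron points nearly coincide near 53 and 49, and every diamond lies below 31.9 in replicate 1, the lowest grey point on that axis. In replicate 2 the lowest grey point is 25.6, with egl-38 above it at 36.8 and the other diamonds below it. Diamonds are of genes without a conservative peak, so their low values are partly selected for.

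None of the other 8 genes had a conservative peak, a peak in the other pooled list, or one in either replicate's thresholded list. Their strongest pooled ranked signals ran from 35.6 to 60.2, with a median of 43.9. Protein-coding genes without a conservative peak had a median of 42.5 by the same measure, and all protein-coding genes 44.2, neither matched for window length. The conservative peak nearest to the start of each of the 8 genes was 12.04 to 75.8 kb away, with a median of 38.9 kb, against 37.5 kb for the 17702 protein-coding genes without one in the window. An absence from these lists does not show that MAB-9 is absent from a gene.

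Of the hindgut genes egl-38, egl-5 and lin-48, the strongest ranked peak was at egl-38 (WBGene00001204, chromosome IV, 10106599 to 10110517, minus strand). This peak, from 10114739 to 10115058, had its summit 4382 bp upstream, in an exon of the noncoding RNA gene C04G2.14, and the nearest protein-coding start, 543 bp away, was that of C04G2.10. Its pooled signal was 59.9, but the replicates differed, with 20.9 in replicate 1 (rank 27745) and 36.8 in replicate 2 (rank 1347), a log2 ratio of -0.81. The rate was 0.276 in the pooled ranked list and 0.0367 in the other pooled ranked list. At a rate of at most 0.05 that list gave egl-38 beside tlp-1 and egl-27, 3 of the 10 genes, against 19.6% of all genes. Within 1000 bp of the egl-38 start, the strongest ranked peak had a signal of 35.7 and lay in a coding exon of spch-1.

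The Hox gene egl-5 (WBGene00001174, chromosome III, 7814374 to 7817141, plus strand) had its strongest peak 1538 bp upstream of the first start, outside any annotated gene. The pooled signal was 43.2 (rate 0.152), with 30.9 in replicate 1 and 18.8 in replicate 2. LIN-48 is encoded by lin-48 (WBGene00003033, chromosome III, 3745438 to 3747572, plus strand), where the strongest peak lay 1106 bp upstream with a pooled signal of 35.6 (rate 0.118). Replicate 1 had 26.9 there, and no ranked peak of replicate 2 shared enough of its length with it. The lin-48 value was the lowest of the 10 genes, and 78.2% of all protein-coding genes had a strongest signal at least as high.

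The genes of the Y-to-PDA change other than egl-27 also had ranked peaks only. The Spalt gene sem-4 (WBGene00004773, chromosome I, 7038900 to 7048832, plus strand) had a peak of 60.2 with its summit 1671 bp upstream and a rate of 0.0578, followed by one of 54.8 in its intron 1 with a rate of 0.0948. The upstream peak had 31.4 in replicate 1 and 23.003 in replicate 2, where the summit was 110 bp away. The rate of this peak was 0.697 in the other pooled ranked list, far above its value in the first. At ceh-6 (WBGene00000431, chromosome I, 8498112 to 8502604, minus strand) the strongest peak, 44.4, lay in intron 1, 663 bp downstream of the start, with 25.3 and 18.1 in the replicates. At sox-2 (WBGene00004949, chromosome X, 7458280 to 7463736, minus strand) it was 45.8, with 27.5 and 16.6 in the replicates, and lay 3591 bp upstream in an intron of coh-1, whose start was nearer than that of sox-2.

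The DM domain genes mab-23 and dmd-3 of the male tail had ranked peaks only. For mab-23 (WBGene00003114, chromosome V, 10633058 to 10635525, plus strand) the strongest pooled peak was 43.5, in intron 1, with 22.0 and 12.6 in the replicates. A second lay 145 bp upstream of the mab-23 start with a pooled signal of 38.7, but with 32.3 in replicate 1 and 12.7 in replicate 2, a log2 ratio of 1.35. For dmd-3 (WBGene00012832, chromosome V, 19650025 to 19655251, minus strand) the strongest was 38.8, at 2780 bp upstream, with 19.97 and 13.7 in the replicates and a rate of 0.463.

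**Figure D3:**
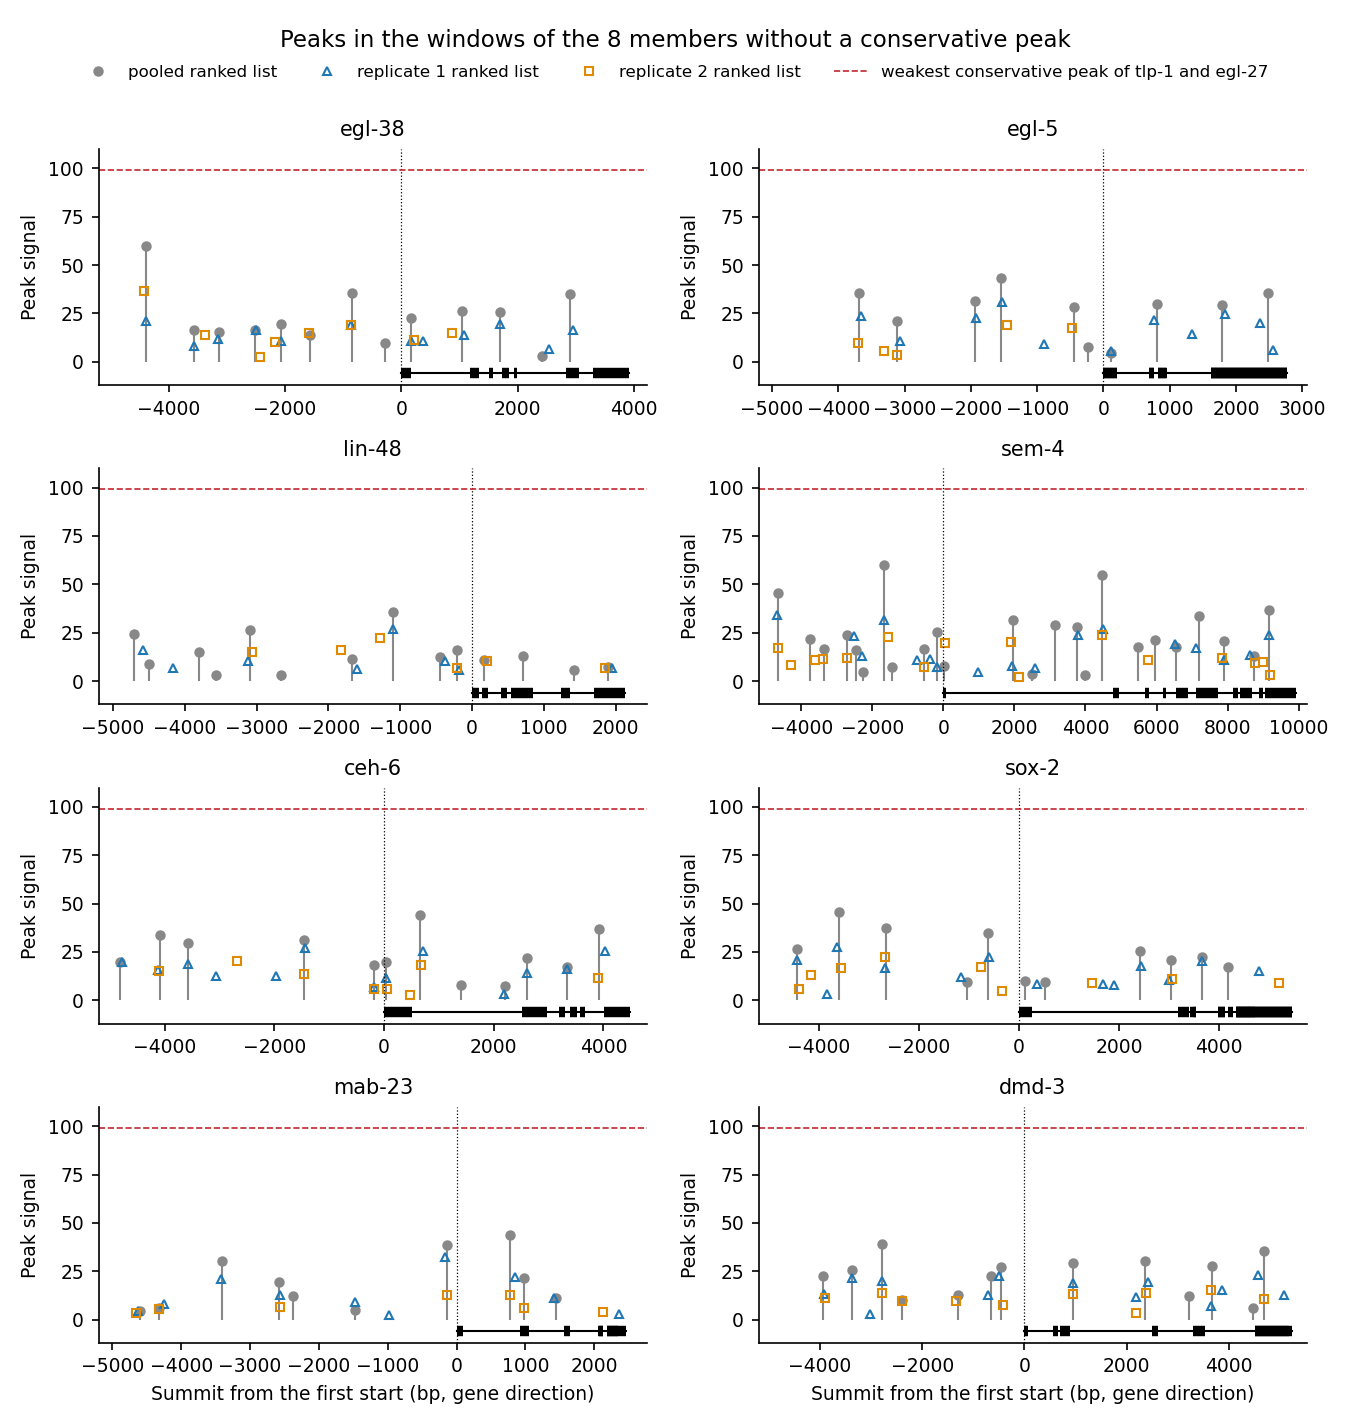
Peak signal (vertical axis, authors' scale) against summit position from the first start (horizontal axis, bp, positive in the direction of the gene) for the 8 genes without a conservative peak. Grey stems are pooled ranked peaks, triangles and squares the ranked peaks of replicates 1 and 2, black boxes exons, and the dashed line stands at 99.1, the weakest conservative peak of tlp-1 and egl-27. Every stem stays below the line, the highest being 60.2 at sem-4 and 59.9 at egl-38.

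When each replicate was taken alone, the strongest ranked signal in the window put tlp-1 first and egl-27 next in both. Means over the replicates were 73.0 ± 1.64 for tlp-1 and 50.9 ± 2.60 for egl-27 (SD, n = 2 here and below). Neither overlapped the other or any of the remaining 8 genes, whose single values ran from 12.7 to 36.8. Conservative peaks were mostly strong ones of these same data, so the gap to the 8 genes without one follows partly from the call. It is no separate support for binding. Those 8 were ordered as egl-38 (28.9 ± 11.2), sem-4 (28.9 ± 7.26), sox-2 (25.01 ± 3.46), egl-5 (24.8 ± 8.61), lin-48 (24.5 ± 3.39), ceh-6 (23.8 ± 4.64), mab-23 (22.5 ± 13.9) and dmd-3 (19.3 ± 5.26). Neighbours among these 8 differed by less than the larger of their SDs. The median over all protein-coding genes was 27.9 in replicate 1 and 22.0 in replicate 2, and for these 8 genes it was 27.3 and 21.3. Measured against all protein-coding genes, 3.60% had a pooled signal at least as high as tlp-1 and 6.55% at least as high as egl-27, then 17.8% for sem-4 and 18.04% for egl-38. The other 6 genes were between 44.95% and 78.2%.

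**Figure D4:**
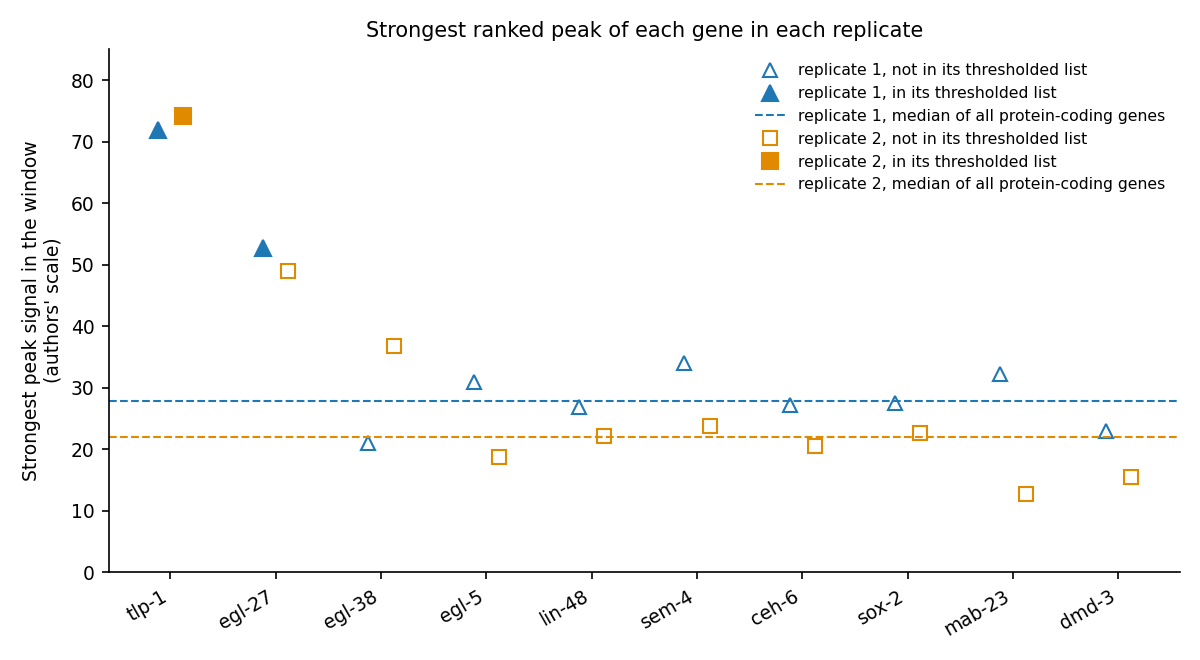
Strongest ranked peak signal in the window of each gene (vertical axis, authors' scale), with triangles for replicate 1 and squares for replicate 2; filled symbols are in that replicate's thresholded list. Dashed lines are the medians over all protein-coding genes, 27.9 in replicate 1 and 22.0 in replicate 2, and tlp-1 and egl-27 are the genes with both symbols above 45.

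The replicates also differed in where the strongest peak of a gene lay. They placed it at the same site, sharing at least 50% of the shorter peak, in 5 of the 10 genes: tlp-1, egl-27, egl-38, egl-5 and mab-23. Among the 19407 protein-coding genes with a ranked peak in both replicates this was so for 25.8%, and among those without a conservative peak for 17.4%, against 3 of the 8 genes here. Each of these 3 had a poorly ranked peak in a replicate. In replicate 2 mab-23 had rank 44195 (rate 0.949) and egl-5 rank 17639 (rate 0.780). In replicate 1 egl-38 had rank 27745 (rate 0.920). At lin-48 the strongest summits were 170 bp apart, and at dmd-3, sox-2, ceh-6 and sem-4 they were 913, 953, 1248 and 9148 bp apart. The windows were about as dense in ranked peaks as others, with 1.41 pooled ranked peaks per kb against 1.29 over all protein-coding windows.

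Other genes of the same processes were drawn from 4 lists, of hindgut fate, the Y-to-PDA change, T cell polarity and the male tail. Of 37 such genes that are not among the 10, 6 (16.2%) had a conservative peak, beside 11.4% of all protein-coding genes. That share is not matched for window length. Windows of the 6 were 9.27 to 13.1 kb long, against a median of 7.03 kb over all protein-coding genes. The 6 include mab-9, the tagged gene itself. In the other pooled list the count was 4 (10.8%), without lin-41 and pop-1, beside 11.7% of all genes. Each replicate's own list gave 3 (8.11%), beside 7.34% of all genes for replicate 1 and 7.80% for replicate 2. In the T cell polarity list 3 of 11 had a conservative peak, and 2 in the other pooled list. The β-catenin genes wrm-1 and sys-1 had signals of 109 (48.0 and 57.8 in the replicates) and 152 (65.9 and 82.4), and both peaks were in both replicates' thresholded lists. The wrm-1 summit lay 801 bp upstream. That of sys-1 lay 4205 bp upstream of sys-1 but 133 bp upstream of the histone gene his-68, the nearest start. The TCF gene pop-1 had a peak of 70.7 in a coding exon (39.8 and 29.7), in neither replicate's list, and the nearest start was that of W03D8.3.

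In the male tail list 2 of 15 other genes had a conservative peak. At lin-41, a TRIM-NHL gene of developmental timing and tail tip shape, it was 94.5 (41.4 and 43.95 in the replicates). That peak was in replicate 1's thresholded list only, and its rate was 0.416 in the other pooled ranked list. The DM domain gene dmd-7 had 86.3 (51.9 and 38.3), in neither replicate's list, at rates of 0.0104 and 0.0112. The dmd-7 summit lay 202 bp upstream of its start and within 2 noncoding RNA genes. In the hindgut list 1 of 9 had a conservative peak, mab-9 itself, with peaks of 108 and 78.5 upstream of its start. The stronger was nearer to the start of srh-105, had 42.7 and 66.6 in the replicates, and was in replicate 2's thresholded list only. The weaker had 42.0 and 29.3, and was in neither replicate's thresholded list nor the other pooled list. None of the 9 other genes of the Y-to-PDA list had a conservative peak. Under the same rule 11.4% of all protein-coding genes had a conservative peak, beside 13.3% of the male tail list and 11.1% of the hindgut list. The T cell polarity list, at 27.3%, held 11 other genes, and no result is read from counts this small. The lists share several genes with the 10 and with each other, so these counts are not independent.

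The T-box sequence was not common to the peaks described here. AGGTGTGA lay in 3 of the 1431 conservative windows (0.210%) and in 113 of 19973 promoters of the same length (0.566%), and the tlp-1 promoter was 1 of those 3 windows. The site runs from 13704229 to 13704236 on chromosome IV. Its shorter core AGGTGT lay in 4.96% of conservative windows and 6.05% of promoters, and was not in the windows of the tlp-1 exon, the egl-27 intron or the strongest ranked peak of any of the 8 other genes. GTGTGA, which overlaps the site by 6 letters, lay in 10.7% of conservative windows and 8.67% of promoters. Here it was in the tlp-1 promoter, as part of the site, and in the window of the sem-4 upstream peak. GAGAGA lay in 37.7% of conservative windows and 16.3% of promoters, and here in those of the tlp-1 promoter and the sem-4 upstream peak. The GATA sequence TGATAA (8.39% and 22.8%) was in the sem-4 window, and the E-box CACGTG (7.20% and 4.23%) and the core shifted by a base, GGTGTG (7.62% and 5.33%), were found in none but, for the latter, the tlp-1 promoter. A match is a description of the sequence and does not show that MAB-9 contacts it.

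Base composition differed among the windows. GC content was 46.3% at the tlp-1 promoter, 51.2% at the tlp-1 exon and 45.8% at the egl-27 intron, close to the median of 44.8% over conservative windows and above the 32.8% of promoters. Among the strongest ranked peaks of the other 8 genes it was lowest at dmd-3 (29.9%), mab-23 (30.3%), egl-5 (34.8%) and sox-2 (36.3%), and between 45.3% and 48.8% at ceh-6, lin-48, egl-38 and sem-4.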

How the data were processed

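The analysis used peak lists from ChIP-seq of tagged MAB-9 in L1 animals, made from 1 group of 2 biological replicates. Per the labels, chromatin was sonicated to 200 to 800 bp and coordinates are of ce11, the build of the annotation (Ensembl release 115) and of the RefSeq genome. Per the file headers, peaks came from alignments of the replicates and from further files whose kind is not described for the lists. The aligner, peak caller and versions are not given in the sources used here. Column 7 holds the deposited signal of each peak, the value of the authors' peak caller on an unstated scale. The deposited score follows the irreproducible discovery rate, whose −log10 the authors give in the ranked lists; rates printed here are computed from that. In the pooled ranked lists, 4 further columns hold signals of component peaks with no replicate named, and were not used. Without read counts the depth is unknown, so counting intervals are left out.

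Peaks were assigned by summit to windows from 5000 bp upstream of the first start to the gene end, and ranked by signal within each list. Peaks of different lists were matched where they shared at least 50% of the shorter peak, taking the strongest match. Sequence patterns were searched on both strands within 100 bp of the summit, and in promoters over an equal length ending at the first start. With 1 group there was no contrast and no test. Shares over all protein-coding genes are given for the counts of the 10 genes with a peak, and of the 37 others together. The separate lists of other genes are set beside the same share for the conservative list. The genes, lists and alternatives were chosen with earlier results of these data known. Named genes are the 10 genes, every other listed gene with a conservative peak, the gene with the nearest start where it differs, and mab-9. Of the listed names, 1 (dmd-11) matched no protein-coding gene. Alternatives were other peak lists, windows, thresholds and overlaps. The code was tested on simulated data. Python 3.11.15, NumPy 2.4.6, pandas 2.3.3 and matplotlib 3.10.9 were used.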

Additional observations from a re-analysis of the deposited data

How the results depend on the processing

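The 2 genes with a conservative peak, tlp-1 and egl-27, and their 3 peaks were the same in the other pooled list, among conservative peaks of at least the median signal, with 2000 or 10000 bp upstream, by any overlap with the window, and by the nearest protein-coding start. Leaving out a replicate gave 1 to 2 genes and 1 to 3 peaks, the lower values being tlp-1 alone in the list of replicate 2. Without gene bodies 1 gene and 1 peak were left, since the egl-27 peak and a tlp-1 peak lie inside the genes. At a rate of at most 0.05, chosen after seeing the data, the windows held 5 peaks. The share of all protein-coding genes moved with these settings, from 11.4% to 6.68% at the median signal, 7.34% without replicate 2, 4.99% by nearest start and 18.8% at the looser rate. It was 7.75% with 2000 bp upstream, 16.4% with 10000 bp and 11.7% by any overlap. Without gene bodies it was 9.83%, beside the 1 gene of the 10. Of the 37 other listed genes, 6 had a conservative peak, 4 had one in the other pooled list and 3 in either replicate's list when the other was left out, counts added after seeing the data. The strongest signal was 71.8 to 74.1 at tlp-1 and 49.0 to 52.7 at egl-27 in single replicates, against 153 and 101 in the pooled list. Whether single and pooled lists share a scale is not stated in the sources used here. AGGTGT was in 0 of the 3 peaks within 50 bp of the summit. Presence in the replicates' lists did not change with the overlap required. No paired analysis was possible because there is 1 group. Depth is unknown, so a weak peak cannot be told from a shallow one.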

Other observations

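The 8 genes without a conservative peak in their windows had their nearest one as follows. The nearest to egl-5 was among the strongest of the list, at rank 4 with a signal of 624, and lay 40.3 kb away, 444 bp upstream of rpl-35, a gene of a ribosomal protein. The nearest to sem-4, with a signal of 164, lay 17.4 kb away, 508 bp upstream of ubql-1. The nearest to lin-48 (153) lay 49.8 kb away, 923 bp upstream of npr-15, and the nearest to sox-2 (118) 37.4 kb away, 201 bp upstream of uggt-1. The nearest to mab-23 (74.8) lay 43.2 kb away, 1708 bp downstream of the start of the homeobox gene ceh-22. The nearest to dmd-3 (124.5) lay 12.04 kb away, downstream of the start of Y43F8C.7, that to egl-38 (73.3) 20.5 kb away, 106 bp upstream of ttr-39, and that to ceh-6 (146) 75.8 kb away, 731 bp upstream of F02E9.5. These genes were named after their values were seen.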
